A study of Mus musculus with 33 samples.

Results

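DEAD-box and DEAH-box proteins are helicases that use ATP to open RNA duplexes or to strip proteins from RNA. They were followed here in cultured mouse esophageal basal cells that lost Nudt21. The set holds every gene of the mRNA table whose symbol is Ddx or Dhx followed by a number, except Ddx58, which gives 49 of 12348 genes. All 49 reached at least 1 scaled CPM (read counts relative to library size, scaled further by the authors) in at least 3 libraries and were tested. A pair of entries carries other symbols in RefSeq: Ddx39 is Ddx39a there, and Ddx26b is Ints6l, a relative of an Integrator complex subunit that the name alone brings into the set. The words helicase genes below cover all 49, Ddx26b included.

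The family works at nearly every step in the life of an RNA. Several DEAH-box members drive the rearrangements of the spliceosome and release the spliced product, a large nucleolar group processes ribosomal RNA, and others load export factors, open the 5' ends of messages for the ribosome or hold messages in cytoplasmic granules. Nudt21 encodes CFIm25, a subunit of the cleavage factor that takes part in the choice of the poly(A) site, so these genes can be read both as mRNA levels and as users of alternative poly(A) sites.

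The cells were labelled Nudt21 fl/fl; R26CreER, a floxed allele with a tamoxifen-inducible Cre. Hypomorph cells had 0.05 µM 4-hydroxytamoxifen (4OHT) with 50 ng/ml doxycycline for 4 or 6 days, KO cells had 0.05 µM 4OHT alone for 2, 4 or 6 days, and controls (day 0) had ethanol for 4 days. Each of the 6 groups had 3 poly(A)-selected mRNA libraries, 18 in all. Doxycycline was given to all hypomorph samples and to no other sample, so its action and the hypomorph state cannot be told apart, and controls were collected after 4 days only. No label says that replicates were separate cultures or animals, so p-values here reflect variation among libraries that may be technical only. PAS-seq, a sequencing of transcript 3' ends that locates poly(A) sites, had 3 samples each of hypomorph day 4, KO day 4 and control, deposited as 1 pooled value per group.

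Depth ran from 16268703 to 91433354 reads on listed genes, of which the 49 helicase genes took 77836 to 513660. All 3 KO day 2 libraries were deep (52200222 to 69593227 reads) and all 3 controls shallow (16279751 to 18978946). Nudt21 itself lay at 2.01, 1.34 and 1.78 scaled CPM at KO day 6 and 3.94, 0.999 and 3.38 at hypomorph day 6, against 12.2, 14.2 and 12.2 in controls. All 7 basal epithelial markers were listed, and their summed level stayed between 27966 and 33696 scaled CPM in all 18 libraries. Single markers did not all hold level. Krt15 had 1403, 1221 and 1296 at KO day 6 against 430, 581 and 275 in controls. Col17a1 had 5295, 5387 and 5914 against 2696, 2775 and 3089, and Krt14 had 6459, 6042 and 6597 against 8710, 8771 and 8425. Of 6 liver markers 4 were listed, with sums of 6.27 to 868 scaled CPM that differed within groups. Other marker sums stayed low: 2 of 4 leukocyte markers were listed (0 to 17.6 scaled CPM), 1 of 4 fibroblast markers (0 to 2.29), 1 of 3 muscle markers (0 to 8.47) and 0 of 3 endothelial markers. The part of these other cell types in the results was not tested. In bulk samples, fewer cells of a type and less RNA per cell cannot be told apart.

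Read per kilobase of gene length, the most abundant members in control cells were Ddx5 (207 ± 1.03 scaled CPM per kb, mean ± SD, n = 3), Ddx3x (175 ± 3.15), Ddx21 (137 ± 10.7), Ddx1 (136 ± 4.29), Ddx39b (125 ± 9.51) and Dhx15 (112 ± 3.96). The SDs of Ddx21, Ddx1 and Ddx39b overlap. The least abundant were Dhx58 (0.241 ± 0.0673) and Ddx26b (2.45 ± 0.15). All levels below are scaled CPM per library or mean ± SD (n = 3), all log2 changes are limma estimates ± SE, and the words rise, fall and differ are kept for an adjusted p under 0.05 over all 12344 tested genes.

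Most helicase genes fell by KO day 6. Against controls, 38 of 49 were lower and 4 higher, where 71.1% of all tested genes passed, 37.5% lower and 33.6% higher. The median log2 change of the 49 was -0.57, beside -0.03 for all genes. Of the 4 counted as higher, Dhx58 passed the filter on low values through its KO day 6 libraries alone, which leaves 3. Among these, Ddx26b is in the set by name alone. The fall came late: 3 members were lower and 4 higher at KO day 2 (7.29% and 11.7% of all genes, 19.0% in sum), and 16 were lower and 4 higher at KO day 4 (22.3% and 23.7%, 46.0% in sum), with medians of 0.06 and -0.10 beside 0.05 and 0.03 for all genes. In reads, the 49 genes together took 0.745 to 0.774% of each control library, 0.738 to 0.763% at KO day 2, 0.652 to 0.691% at KO day 4 and 0.478 to 0.484% at KO day 6.

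The early counts are less firm than the late ones. At KO day 2 the split of 4 higher and 3 lower turned to 3 higher and 5 lower with another scaling (TMM), a term for depth left 3 called, and without the KO day 2 library of replicate 1 there were 4. At KO day 6 between 41 and 43 members passed with any one library left out. With the 7 libraries over 100 scaled CPM of Alb left out, 28 members were lower and 1 higher at KO day 6, when 52.7% of all genes passed; that leaves 1 library in each of these 2 groups, assumed to vary like the others.

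Hypomorph cells went the same way by a smaller median. At hypomorph day 6, 29 members were lower and 4 higher than in controls (31.3% and 35.9% of all genes, 67.2% in sum), with a median log2 change of -0.27 beside 0.03 for all genes. At hypomorph day 4, 13 were lower and 2 higher (14.1% and 17.5% of all genes, 31.7% in sum), with a median of -0.12 beside 0.01. The members took 0.654 to 0.687% of reads at hypomorph day 4 and 0.518 to 0.539% at hypomorph day 6. In sum 67.3% of the 49 were called at hypomorph day 6, beside 67.2% of all genes. These comparisons share the control libraries with those of the KO cells. There were 28 members lower at day 6 in both states, and Ddx39b alone was lower in all 5 comparisons with controls. Matching counts over all genes were not made, so neither count can be set against a general rate.

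**Figure D1:**
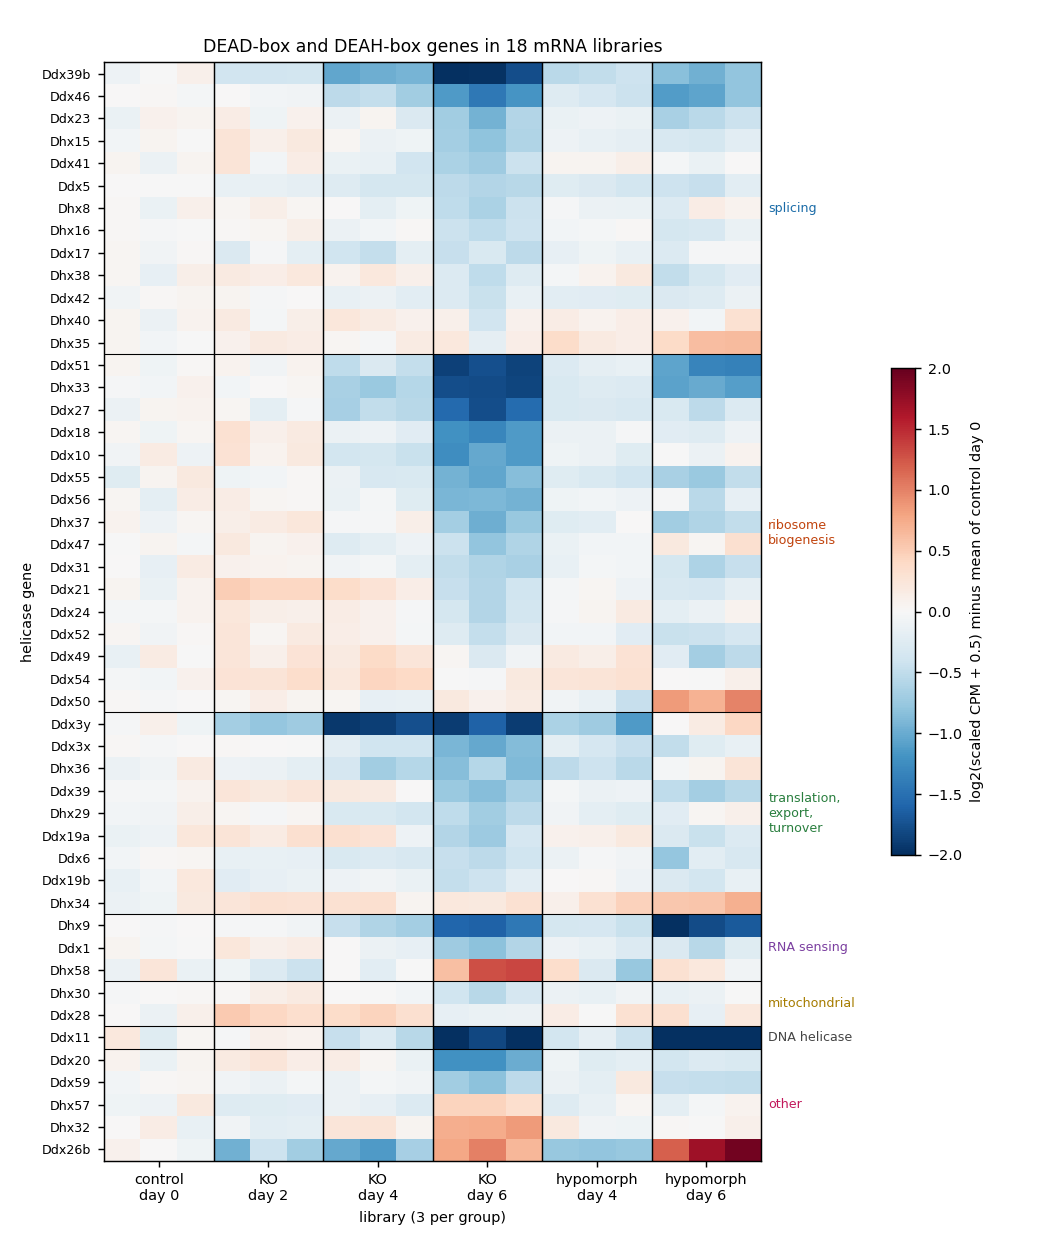
Each row is a helicase gene and each column a library (3 per group, control day 0 first and then by state and day); colour gives log2(scaled CPM + 0.5) minus the mean of the 3 controls, capped at 2 in either direction, with genes grouped by role. The KO day 6 columns are blue for 41 of 49 genes by the fitted change, with Dhx58, Dhx57, Dhx32 and Ddx26b in red.

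**Figure D2:**
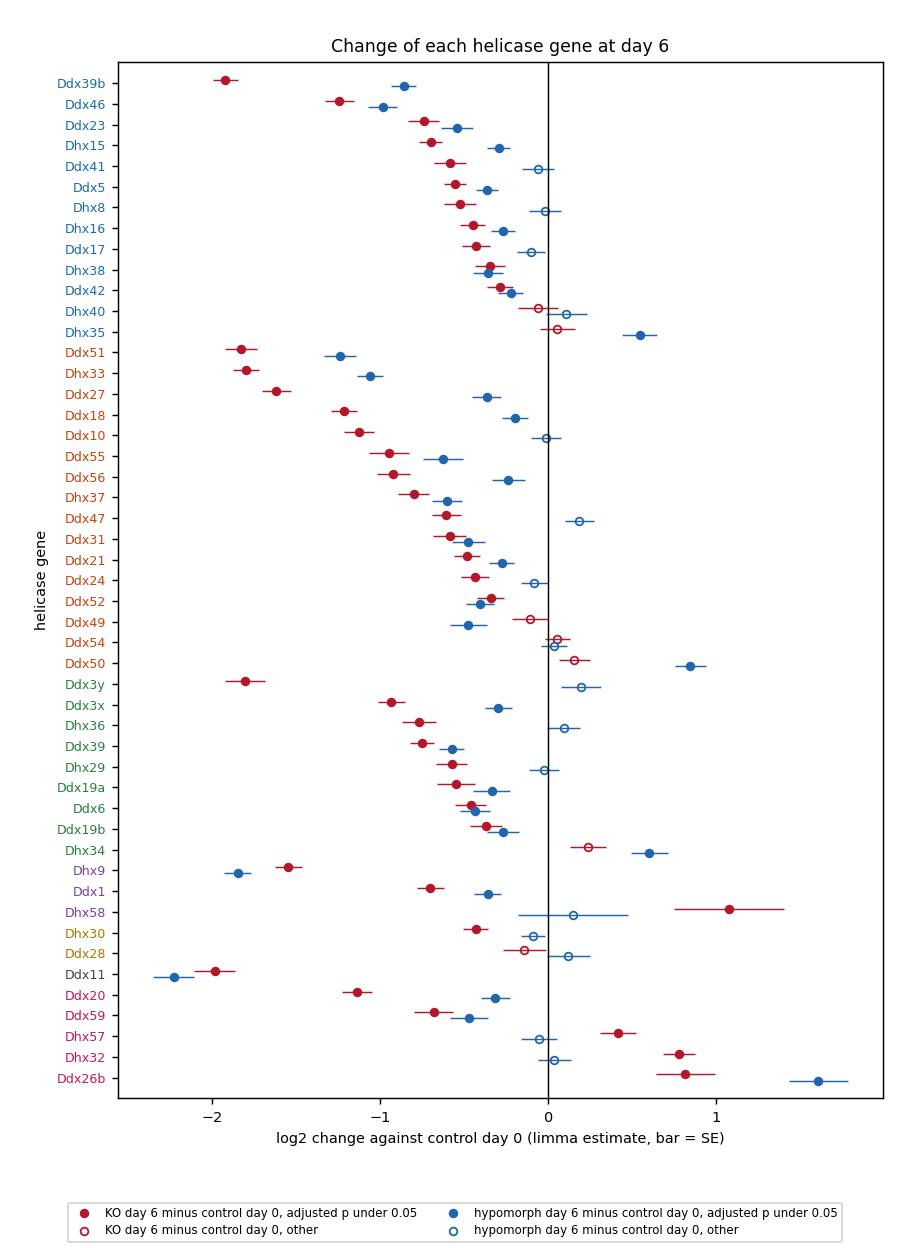
Points give the limma log2 change (horizontal axis, bars SE) of each helicase gene at KO day 6 (red) and hypomorph day 6 (blue) against control day 0, with filled points where the adjusted p was under 0.05 and gene names coloured by role. Most red points lie left of the blue ones, and Dhx9 and Ddx11 are among those with the blue point further left.

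Among the 13 splicing helicases none rose and 11 fell at KO day 6, 84.6% called beside 71.1% of all genes. Ddx39b, known as UAP56, acts in early spliceosome assembly and hands messages to the export machinery, and it changed most. Ddx39b (GRCm38 chromosome 17, 35241746 to 35253707, protein coding) had 204, 220.1 and 238 scaled CPM in controls, 169, 169 and 170.3 at KO day 2, 107, 112 and 115 at KO day 4 and 54.5, 55.5 and 63.8 at KO day 6. The groups did not overlap from one time to the next, and each was lower than the one before. At KO day 6 the gene stood at a log2 change of -1.92 ± 0.08 (limma adjusted p = 2.12e-18). Hypomorph cells had 152, 157 and 165 at day 4 and 123, 113 and 127 at day 6, lower than controls at both days (-0.48 ± 0.08 and -0.86 ± 0.08; limma adjusted p = 1.97e-05 and 6.68e-11) but higher than KO cells of the same day.

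Ddx46, the helicase that helps the U2 particle onto the branch site, followed at a smaller scale. It had 80.3, 65.3 and 77.9 scaled CPM at KO day 6 and 81.2, 84.7 and 102 at hypomorph day 6, against 178, 180.0 and 171 in controls, with no overlap (log2 change -1.24 ± 0.09, limma adjusted p = 4.3e-13 in KO cells; log2 change -0.98 ± 0.09, limma adjusted p = 7.92e-11 in hypomorph cells). Dhx15, which releases the lariat at the end of splicing and takes apart the spliceosome, had 258 ± 17.9 at KO day 6 against 419 ± 14.9 in controls (log2 change -0.70 ± 0.07, limma adjusted p = 5.71e-10). Ddx23, another member of the splicing class, had 85.5 ± 10.7 against 143 ± 11.0 (log2 change -0.74 ± 0.09, limma adjusted p = 5.16e-08). Ddx42, linked to the U2 particle, changed little by comparison: 121 ± 12.7 at KO day 6 against 148 ± 6.96 (log2 change -0.29 ± 0.08, limma adjusted p = 0.00123).

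The splicing set was not uniform between the states. Ddx41, which is bound to the late spliceosome, had 40.2, 38.1 and 46.3 at KO day 6 and 60.4, 56.7 and 62.4 at hypomorph day 6, against 64.9, 57.7 and 64.8 in controls (log2 change -0.59 ± 0.09, limma adjusted p = 3.3e-06 in KO cells; log2 change -0.06 ± 0.09, limma adjusted p = 0.582 in hypomorph cells). Hypomorph and KO cells differed in Ddx41 at day 6 by 0.53 ± 0.09 (limma adjusted p = 2.23e-05). At hypomorph day 6, 8 splicing members were lower and 1, Dhx35, was higher. That is 69.2% called, near the 67.2% of all genes. Dhx40 was the only member of the 49 that passed in none of the 9 comparisons, with group means from 23.3 ± 4.22 at KO day 6 to 27.0 ± 1.37 at KO day 4.

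The 16 ribosome biogenesis helicases gave some of the largest falls. At KO day 6, 13 fell and none rose (median log2 change -0.70), 81.25% called beside 71.1% of all genes. At KO day 4, 4 fell and 3 rose, and at KO day 2 none fell and 2 rose. These early counts were no higher than the rate of all genes: 43.75% beside 46.0% at day 4 and 12.5% beside 19.0% at day 2. Ddx51 (GRCm38 chromosome 5, 110653432 to 110663019, protein coding), which acts on the large subunit RNA, had 16.8, 18.2 and 17.0 scaled CPM at KO day 6 and 30.0, 24.9 and 24.4 at hypomorph day 6, against 65.5, 59.1 and 64.2 in controls. Both states lay below every control library (log2 change -1.83 ± 0.09, limma adjusted p = 5.69e-16 in KO cells; log2 change -1.24 ± 0.09, limma adjusted p = 2.87e-12 in hypomorph cells). Dhx33, a nucleolar DEAH-box helicase linked to ribosomal RNA synthesis, had 23.8, 23.4 and 22.8 at KO day 6 and 39.2, 40.6 and 38.1 at hypomorph day 6, against 80.9, 79.5 and 87.1 in controls (log2 change -1.80 ± 0.08, limma adjusted p = 1.39e-17; log2 change -1.06 ± 0.08, limma adjusted p = 1.45e-12). For both genes the hypomorph libraries sat between KO and control libraries without overlap.

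Ddx27, Ddx18 and Ddx10 fell at least 2-fold at KO day 6 and changed less at hypomorph day 6, with a test of that difference given further on. All are nucleolar and act in the making of ribosomal subunits. Ddx27 had 43.7, 37.4 and 44.0 at KO day 6 and 105, 89.9 and 106 at hypomorph day 6, against 118, 134 and 135 in controls (log2 change -1.62 ± 0.09, limma adjusted p = 1.11e-15 in KO cells; log2 change -0.37 ± 0.09, limma adjusted p = 0.000474 in hypomorph cells). Ddx18 had 45.0, 42.0 and 47.5 at KO day 6 and 89.0, 87.2 and 97.1 at hypomorph day 6, against 108, 98.9 and 107 in controls (log2 change -1.21 ± 0.08, limma adjusted p = 5.51e-14 in KO cells; log2 change -0.20 ± 0.08, limma adjusted p = 0.0248 in hypomorph cells). That small hypomorph fall of Ddx18 did not pass in 6 of 16 other settings. Ddx10 had 27.5, 32.1 and 29.6 at KO day 6 and 65.3, 60.3 and 68.8 at hypomorph day 6, against 62.5, 73.3 and 61.2 in controls (log2 change -1.13 ± 0.09, limma adjusted p = 6.21e-12 in KO cells; log2 change -0.02 ± 0.09, limma adjusted p = 0.881 in hypomorph cells). Its hypomorph libraries overlapped the controls and its KO libraries did not.

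Other members of this class were higher than controls at the early KO times. Ddx21, a nucleolar helicase that couples ribosomal RNA synthesis and processing, had 677, 594 and 688 scaled CPM in controls, 920.3, 872 and 865 at KO day 2, 845, 784 and 711 at KO day 4 and 473, 434 and 494 at KO day 6. It was higher than controls at day 2 and day 4 (0.44 ± 0.08 and 0.26 ± 0.08; limma adjusted p = 0.000124 and 0.00702) and lower at day 6 (-0.48 ± 0.08; limma adjusted p = 2.19e-06). Ddx54, a nucleolar helicase, was higher at KO day 2 and day 4 (173 ± 6.18 and 180.1 ± 14.0 against 141 ± 7.94; limma adjusted p = 0.0069 and 0.00036) and had 147 ± 13.1 at day 6 (log2 change 0.05 ± 0.07, limma adjusted p = 0.542). The day 4 rise of Ddx21 ended under 4 of 16 other settings, 2 of them a term for depth and the shallow libraries alone. Early rises in general depended on that term. With it, 1 of the 49 members was higher at KO day 2 and 2 at KO day 4, in place of 4 at each time.

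**Figure D3:**
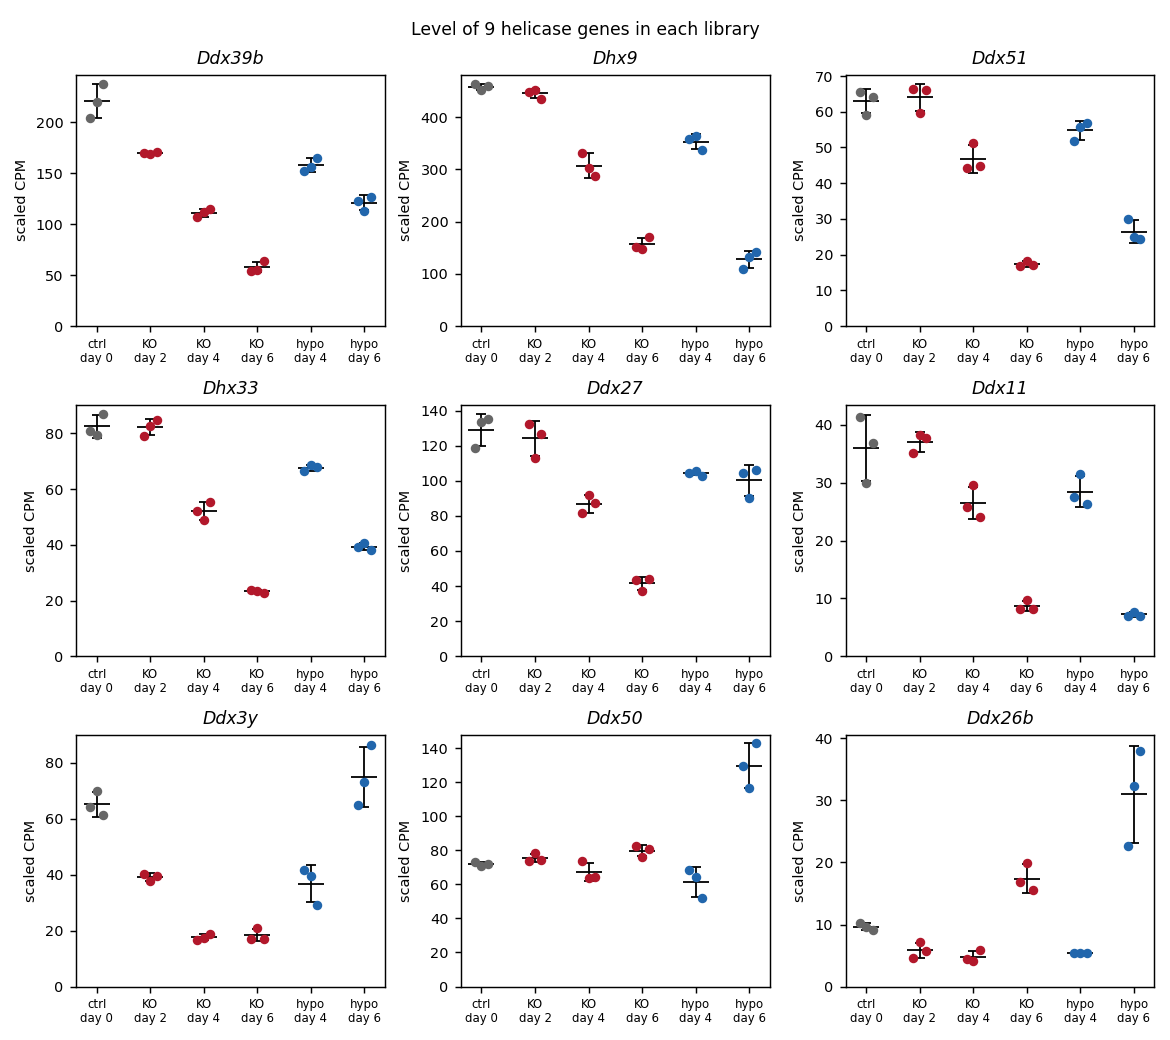
Scaled CPM (vertical axes from 0) of 9 helicase genes in each library, with the mean as a bar and the SD as whiskers (n = 3) for control day 0 (grey), KO days 2, 4 and 6 (red) and hypomorph days 4 and 6 (blue). Ddx39b steps down at every KO time, Dhx9 and Ddx11 are low at day 6 in both states, and Ddx3y is low in KO cells and overlaps the controls in hypomorph day 6 cells.

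Of the 9 helicases of translation, export and message turnover, 8 fell at KO day 6, 88.9% called beside 71.1% of all genes. At hypomorph day 6, 5 fell and 1 rose, where 66.7% called stands beside 67.2% of all genes. Ddx3x, which helps the ribosome start on structured messages, is among the most abundant members. It had 476, 439 and 489 scaled CPM at KO day 6 and 637, 752 and 803 at hypomorph day 6, against 908, 876 and 897 in controls (log2 change -0.93 ± 0.08, limma adjusted p = 2.81e-11 in KO cells; log2 change -0.30 ± 0.08, limma adjusted p = 0.00178 in hypomorph cells). KO libraries lay below all hypomorph ones, and hypomorph below all controls. Dhx36, which opens G-quadruplexes, had 54.7, 66.6 and 53.4 at KO day 6 against 91.7, 94.7 and 112 (log2 change -0.77 ± 0.10, limma adjusted p = 9.6e-08). In hypomorph cells it had 68.5, 74.4 and 68.0 at day 4, lower than controls (log2 change -0.49 ± 0.10, limma adjusted p = 0.000401), and 96.0, 103 and 118 at day 6, overlapping them (log2 change 0.09 ± 0.10, limma adjusted p = 0.423). Ddx6, which represses and stores messages in cytoplasmic granules, had 196, 188 and 204 at KO day 6 against 259, 274 and 278 (log2 change -0.46 ± 0.09, limma adjusted p = 5.14e-05). Dhx34, which acts in nonsense-mediated decay, was the member that rose at hypomorph day 6, with 33.3, 34.0 and 37.8 against 21.0, 21.6 and 26.4 (log2 change 0.60 ± 0.11, limma adjusted p = 2.27e-05).

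Ddx3y, the Y-linked copy of Ddx3x (GRCm38 chromosome Y, 1260715 to 1286628, protein coding), had the largest difference between the states. It had 64.1, 69.8 and 61.2 scaled CPM in controls, 40.3, 37.7 and 39.5 at KO day 2, 16.7, 17.3 and 18.9 at KO day 4 and 17.1, 20.9 and 17.0 at KO day 6. The fall was already present at KO day 2 (log2 change -0.72 ± 0.12, limma adjusted p = 6.65e-05) and days 6 and 4 gave an estimate of 0.05 ± 0.12 for their difference (limma adjusted p = 0.736). Hypomorph cells had 41.6, 39.4 and 29.2 at day 4, below controls (log2 change -0.83 ± 0.12, limma adjusted p = 5.03e-06), and 65.0, 73.2 and 86.4 at day 6, overlapping them (log2 change 0.19 ± 0.12, limma adjusted p = 0.152). Ddx3x over the same KO times had 894 ± 16.1 in controls, 897 ± 11.3 at day 2, 711 ± 54.4 at day 4 and 468 ± 26.2 at day 6, so it did not share the day 2 fall (log2 change 0.01 ± 0.08, limma adjusted p = 0.972). Both genes are similar in sequence, and reads could in part be assigned to the other copy.

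Of the 3 members put under RNA sensing, Dhx9 and Ddx1 fell at day 6 in both states. Dhx9 (GRCm38 chromosome 1, 153455756 to 153487688, protein coding) opens RNA duplexes, DNA hybrids and inverted repeats in the nucleus. It had 463, 452 and 460.2 scaled CPM in controls, 449, 452 and 435 at KO day 2, 332, 303 and 287 at KO day 4 and 152, 149 and 169.7 at KO day 6. Hypomorph cells had 358, 364 and 338 at day 4 and 109, 132 and 142 at day 6. Controls and KO day 2 overlapped only at the lower edge of the controls. Later groups in each state fell away from both without overlap (log2 change -1.55 ± 0.08, limma adjusted p = 6.76e-16 for KO day 6, and log2 change -1.85 ± 0.08, limma adjusted p = 2.09e-17 for hypomorph day 6). Here the hypomorph cells were lower than the KO cells at day 6, by -0.30 ± 0.08 (limma adjusted p = 0.0019). Ddx1, which takes part in the tRNA ligase complex, had 207 ± 17.0 at KO day 6 and 263 ± 29.2 at hypomorph day 6, against 336 ± 10.6 in controls (log2 change -0.70 ± 0.08, limma adjusted p = 7.88e-09; log2 change -0.36 ± 0.08, limma adjusted p = 0.000257). Dhx58, which encodes the sensor LGP2, was near the floor of detection, with 1.13, 2.13 and 2.23 at KO day 6 against 0.494, 0.769 and 0.482. It is named as 1 of only 4 members higher there, outside the rule for named genes. Because it reached 1 scaled CPM in no other group, it entered the tests through its KO day 6 libraries alone, and its calls at KO day 6 carry no weight.

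Ddx11 (GRCm38 chromosome 17, 66123513 to 66152174, protein coding), a DNA helicase of sister chromatid cohesion, fell most of all 49. It had 8.18, 9.74 and 8.14 scaled CPM at KO day 6 and 7.004, 7.68 and 7.01 at hypomorph day 6, against 41.3, 30.0 and 36.8 in controls. In both states the day 6 libraries lay far under the lowest control (log2 change -1.98 ± 0.12, limma adjusted p = 2.73e-14 for KO; log2 change -2.23 ± 0.12, limma adjusted p = 2.84e-15 for hypomorph). KO and hypomorph cells did not pass the test of their difference at day 6 (log2 change -0.25 ± 0.12, limma adjusted p = 0.0805). At day 4 the falls were shallow, with 25.7, 29.5 and 24.1 in KO cells and 27.5, 31.5 and 26.3 in hypomorph cells (log2 change -0.43 ± 0.12, limma adjusted p = 0.00482; log2 change -0.33 ± 0.12, limma adjusted p = 0.0414), and ended without the libraries high in Alb and with the shallow libraries alone.

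Of the mitochondrial pair, Dhx30, which acts in the making of the mitochondrial ribosome, had 80.5, 72.2 and 83.8 at KO day 6 against 105, 107 and 108 (log2 change -0.43 ± 0.07, limma adjusted p = 6.23e-06). Ddx28, of the same pathway, was higher at KO day 2 and KO day 4 (19.4 ± 1.3 and 18.8 ± 0.873 against 14.4 ± 1.1, log2 change 0.42 ± 0.13 and 0.38 ± 0.13, limma adjusted p = 0.0204 and 0.0167), the largest log2 rise of the 49 at KO day 4, and did not differ past the threshold at day 6 (log2 change -0.14 ± 0.13, limma adjusted p = 0.32). With a term for depth, only 1 of the 49 members was higher at KO day 2 and 2 at KO day 4.

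Against controls, 12 members were called higher in at least 1 comparison, among them Dhx58, whose call carries no weight. The same count over all genes was not made, but 33.6% of them were higher at KO day 6 and 35.9% at hypomorph day 6. Of the 12, 3 were in the class of other roles (Ddx26b, Dhx32 and Dhx57). That class held 3 of the 4 higher at KO day 6, Dhx58 being the other, and 1 of the 4 at hypomorph day 6. Ddx26b (GRCm38 chromosome X, 56454825 to 56507843, protein coding) moved in both directions: 10.2, 9.64 and 9.04 scaled CPM in controls, 4.67, 7.12 and 5.74 at KO day 2, 4.49, 4.11 and 5.89 at KO day 4 and 16.8, 19.9 and 15.5 at KO day 6. Hypomorph cells had 5.47, 5.36 and 5.46 at day 4 and 22.6, 32.4 and 38.0 at day 6. It was thus lower than all controls at days 2 and 4 and higher than all at day 6 in either state (log2 change -0.94 ± 0.18, limma adjusted p = 7.59e-05 for KO day 4; log2 change 0.82 ± 0.18, limma adjusted p = 0.000166 for KO day 6; log2 change 1.61 ± 0.18, limma adjusted p = 5.28e-09 for hypomorph day 6). Dhx32 and Dhx57 were higher at KO day 6 and did not pass at hypomorph day 6. Dhx32 had 63.5, 64.0 and 68.9 at KO day 6 and 38.5, 37.9 and 40.7 at hypomorph day 6, against 38.1, 42.0 and 34.3 in controls (log2 change 0.78 ± 0.10, limma adjusted p = 3.59e-08; log2 change 0.04 ± 0.10, limma adjusted p = 0.746). Dhx57 had 37.5, 37.3 and 34.7 at KO day 6 and 23.7, 26.7 and 28.6 at hypomorph day 6, against 25.6, 25.3 and 31.3 in controls (log2 change 0.41 ± 0.11, limma adjusted p = 0.00106; log2 change -0.05 ± 0.11, limma adjusted p = 0.663). In the same class Ddx20, a partner of the SMN complex also called Gemin3, fell to 31.3, 31.1 and 36.5 at KO day 6, against 77.1, 66.7 and 75.6 in controls (log2 change -1.14 ± 0.09, limma adjusted p = 3.4e-12). Ddx59 had 13.4, 12.2 and 15.1 at KO day 6 and 15.9, 15.7 and 15.6 at hypomorph day 6, below the 21.1, 22.3 and 22.6 of controls (log2 change -0.68 ± 0.11, limma adjusted p = 5.43e-06; log2 change -0.47 ± 0.11, limma adjusted p = 0.000637).

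Within the KO cells, the helicase genes fell between day 4 and day 6. At day 6, 37 were lower and 5 higher than at day 4, Dhx58 counted among the higher (33.1% and 26.6% of all genes, 59.7% in sum), with a median log2 change of -0.48 beside -0.05 for all genes. Ddx11 (-1.55 ± 0.12), Ddx51 (-1.40 ± 0.09), Ddx20 (-1.16 ± 0.09) and Dhx33 (-1.14 ± 0.08) were foremost. Ddx26b went the other way (1.75 ± 0.18). In the hypomorph cells 22 members were lower at day 6 than at day 4 and 7 higher (30.0% and 31.9% of all genes, 61.9% in sum), with a median of -0.15 beside 0.02. Ddx11 (-1.90 ± 0.12), Dhx9 (-1.47 ± 0.08) and Ddx51 (-1.04 ± 0.09) fell most there. Ddx26b (2.38 ± 0.18), Ddx50 (1.07 ± 0.09), Ddx3y (1.02 ± 0.12) and Dhx36 (0.58 ± 0.10) were higher at hypomorph day 6 than at hypomorph day 4.

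Between the states, the helicase genes were mostly higher in hypomorph than in KO cells at day 6. There 30 were higher and 5 lower (37.7% and 27.0% of all genes, 64.7% in sum), with a median log2 difference of 0.32 beside 0.07 for all genes. At day 4, 6 were higher and 2 lower (13.9% and 10.7% of all genes, 24.5% in sum), with a median of 0.02 beside 0.00. The test of the change in this difference from day 4 to day 6 passed in 27 members, 24 upward and 3 downward (27.4% and 18.2% of all genes, 45.7% in sum), or 21 upward and 6 downward with TMM scaling. It passed in 12 of 48 tested members without the libraries high in Alb, when 28.9% of all genes passed, and in 14 of 48 with the shallow libraries alone, when 20.0% passed. Summed liver markers ran from 30.1 to 47.7 scaled CPM in the hypomorph day 6 libraries and from 19.8 to 707 in the KO day 6 libraries; without the libraries high in Alb, 20 members were higher and 4 lower at day 6. With TMM scaling the day 6 split was 25 higher and 6 lower. Library sums of scaled CPM ran from 910422 to 988279 at KO day 6 and from 1069762 to 1170229 at hypomorph day 6, so the authors' scaling enters the day 6 difference. In unscaled reads, the members took 0.478 to 0.484% at KO day 6 and 0.518 to 0.539% at hypomorph day 6. At day 4 the 8 calls became 4 to 7 with 1 library left out, 4 of them without hypomorph day 4 replicate 2 or replicate 3 and 5 without KO day 4 replicate 1.

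The largest hypomorph excess at day 6 was that of Ddx3y, at 2.00 ± 0.12 (limma adjusted p = 4.74e-14). Ddx27 (1.25 ± 0.09), Ddx10 (1.11 ± 0.09), Ddx39b (1.06 ± 0.08) and Ddx18 (1.01 ± 0.08) also lay at least 2-fold higher. Lower in hypomorph cells were Dhx32 (-0.74 ± 0.10), Dhx57 (-0.47 ± 0.11), Ddx49 (-0.37 ± 0.11) and Dhx9, all with groups that did not overlap except Ddx49. Ddx49, a nucleolar helicase, had 41.4, 30.0 and 33.3 in hypomorph day 6 cells against 49.4, 39.5 and 45.9 in KO day 6 cells. The fifth counted as lower was Dhx58, which entered the tests through its KO day 6 libraries alone.

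Several members have a paralogue in the set. Ddx21 and Ddx50, neighbours on chromosome 10 that arose by duplication, went opposite ways at hypomorph day 6: Ddx50 had 129, 116 and 143 against 72.8, 70.6 and 71.7 in controls (log2 change 0.84 ± 0.09, limma adjusted p = 4.75e-09), and Ddx21 had 523, 514 and 578 against 677, 594 and 688 (log2 change -0.28 ± 0.08, limma adjusted p = 0.00209). At KO day 6 Ddx50 had 82.6, 76.2 and 80.7 (log2 change 0.15 ± 0.09, limma adjusted p = 0.138). Ddx39b and its copy Ddx39, both export helicases, diverged early, since Ddx39 had 239 ± 4.97 at KO day 2 against 204 ± 8.42 in controls (log2 change 0.23 ± 0.07, limma adjusted p = 0.0272) while Ddx39b was lower. That early rise of Ddx39 ended in 8 of 15 other settings, and by KO day 6 it was lower as well (log2 change -0.75 ± 0.07, limma adjusted p = 3.23e-10). Ddx5 and Ddx17, cofactors of splicing and transcription, fell by -0.56 ± 0.07 and -0.43 ± 0.08 at KO day 6 (limma adjusted p = 2.17e-08 and 5e-05). At hypomorph day 6 Ddx5 was lower than controls (log2 change -0.36 ± 0.07, limma adjusted p = 2.5e-05) and Ddx17 did not pass (log2 change -0.10 ± 0.08, limma adjusted p = 0.287). Ddx19a and Ddx19b, adjacent near-identical genes whose reads may be split, changed by -0.55 ± 0.11 and -0.37 ± 0.09 at KO day 6 (limma adjusted p = 8.42e-05 and 0.00102). No test compared the members of a pair with each other.

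PAS-seq listed 33 of the 49. The authors' deposited table calls 14 of them (42.4%) shifted to the proximal site at KO day 4, beside 49.4% of all 4324 listed genes, and 1 (Ddx42) to the distal site, beside 2.2%. The helicase genes were thus called proximal at about the rate of other genes. The proximal share below is the part of proximal and distal reads at the proximal site, from the authors' ratio pooled over a group, so it carries no replicate error, and the reads behind it are unknown.

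Dhx36 showed the largest shift by that measure, with 87.5% in KO day 4 cells, against 2.63% in controls. Ddx46 had 87.3% in KO day 4 cells, against 16.7% in controls. Ddx3x had 68.8% in KO day 4 cells, against 2.49% in controls. In all 3 the main site changed over. Ddx31, a nucleolar helicase, had 72.2% in KO day 4 cells, against 14.8% in controls, and Ddx17 had 54.5% in KO day 4 cells, against 4.76% in controls. Ddx21 had 97.03% in KO day 4 cells, against 45.2% in controls, Ddx3y had 70.6% in KO day 4 cells, against 26.2% in controls, and Dhx33 had 62.2% in KO day 4 cells, against 25.4% in controls. Ddx5, already mostly proximal, had 94.9% in KO day 4 cells, against 61.4% in controls, and Ddx19b likewise had 95.2% in KO day 4 cells, against 77.9% in controls. In a further group the proximal site stayed the minor one: Ddx6 had 25.4% in KO day 4 cells, against 0.794% in controls, Ddx18 had 18.1% in KO day 4 cells, against 0% in controls, Dhx15 had 14.95% in KO day 4 cells, against 0.306% in controls and Ddx50 had 14.5% in KO day 4 cells, against 0% in controls. Ddx42 went the other way, with 73.8% in KO day 4 cells, against 98.6% in controls. Among members without a call, Ddx52 moved further in that direction, with 51.8% in KO day 4 cells, against 85.9% in controls. Ddx11 (1.49%, against 19.4%) and Ddx10 (36.2%, against 51.0%) moved less far. Other uncalled members moved to the proximal site: Ddx55 (63.6%, against 33.3%), Dhx37 (39.3%, against 17.9%), Ddx59 (46.2%, against 29.0%) and Ddx19a (18.9%, against 3.39%).

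Poly(A) site calls and mRNA levels did not map one to one. Of the 14 called proximal, 8 were lower and 1 higher in mRNA at KO day 4, with a median log2 change of -0.31. Of the 18 not called, 5 were lower and 2 higher, with a median of -0.09. Among all tested genes 22.3% were lower and 23.7% higher at KO day 4. The same counts for genes called proximal outside the family were not made. No test compared the called with the uncalled members. Ddx21 was the proximal member with higher mRNA. Dhx9, which fell in mRNA, kept its distal site, with 1.54% in KO day 4 cells, against 2.6% in controls, and Ddx39b was not in the list. For hypomorph day 4 the authors' deposited table calls Ddx17, Ddx21 and Ddx5 proximal and Ddx3x distal. That is 3 and 1 of the 33 members, beside 942 and 38 of all 4324 listed genes. The direction of those calls rests on the authors, because the hypomorph ratio equals the KO ratio in 23 of the 33 members.

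**Figure D4:**
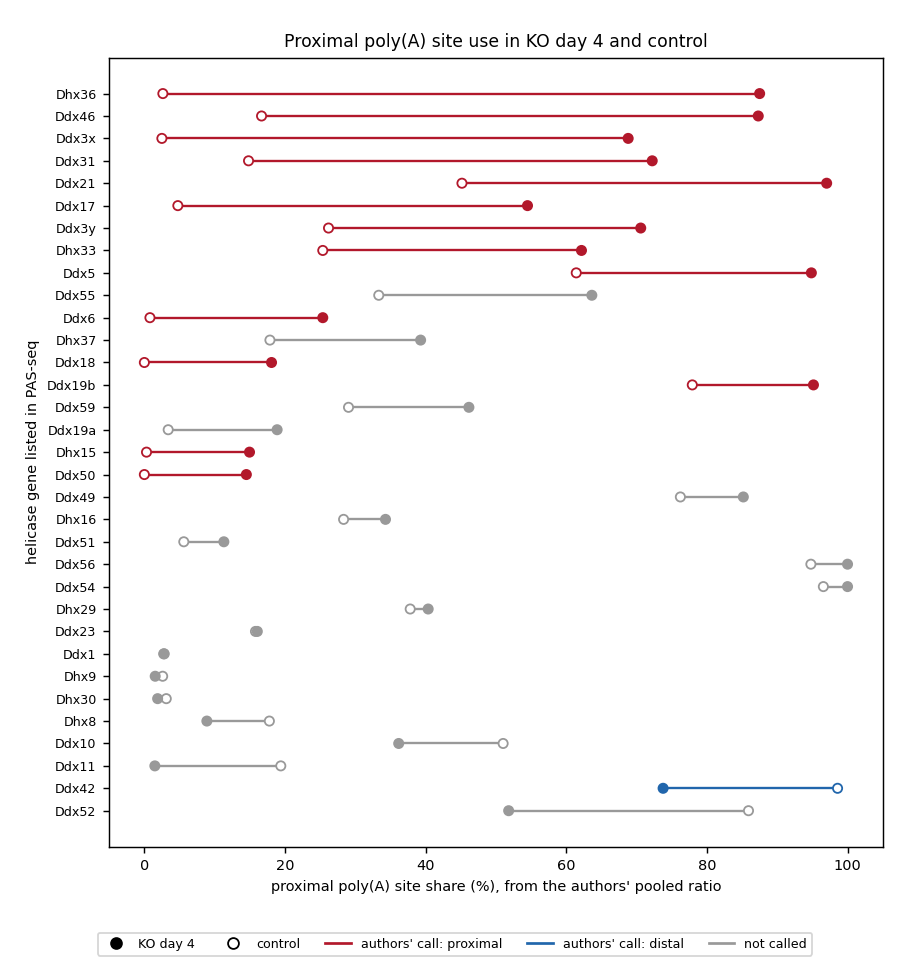
Horizontal axis, proximal poly(A) site share in percent (the authors' pooled ratio, no replicate error) of the 33 helicase genes listed in PAS-seq; filled circles are KO day 4 and open circles controls, coloured by the authors' call. Dhx36, Ddx46 and Ddx3x have the longest lines, and Ddx42 is the one called distal.

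Helicases without a Ddx or Dhx name moved in both directions. Of 21 symbols looked up, 19 were in the mRNA table, and all 19 were tested. At KO day 6, 9 were lower and 6 higher (median log2 change -0.19), 78.9% in sum beside 71.1% of all genes. The translation helicase Eif4a1 had 449, 409 and 491 scaled CPM at KO day 6 against 753, 751 and 743 in controls (log2 change -0.74 ± 0.08, limma adjusted p = 1.09e-09), while its paralogue Eif4a2 had 425, 406 and 418 against 286, 274 and 262 (log2 change 0.60 ± 0.08, limma adjusted p = 5.22e-08). Eif4a3 of the exon junction complex fell too (log2 change -0.997 ± 0.10, limma adjusted p = 3.48e-10). The sensor gene Ifih1 and the helicase Mov10 rose at KO day 6 by 2.04 ± 0.19 and 1.87 ± 0.19 (limma adjusted p = 2.68e-10 and 6.22e-10). At hypomorph day 6, 11 of the 19 were lower and 4 higher, 78.9% in sum beside 67.2% of all genes.

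Among partners of the helicases more fell than rose. Of 38 cofactors, all tested, 22 were lower and 6 higher at KO day 6 (median log2 change -0.36), and 16 were lower and 8 higher at hypomorph day 6 (median -0.12). In sum 73.7% of them were called at KO day 6 and 63.2% at hypomorph day 6, near the 71.1% and 67.2% of all genes. Alyref, the export adaptor that Ddx39b loads, changed by -1.36 ± 0.09 at KO day 6 and -0.69 ± 0.09 at hypomorph day 6. Gemin4 and Smn1, partners of Ddx20, changed by -0.88 ± 0.08 and -1.20 ± 0.10 at KO day 6. Gle1, which activates Ddx19, changed by -0.76 ± 0.09. Against this direction, Pdcd4, an inhibitor of Eif4a1, rose by 2.24 ± 0.17 at KO day 6 and 0.54 ± 0.17 at hypomorph day 6, and Eif4b, a helper of the same enzyme, rose by 0.54 ± 0.07 and 0.83 ± 0.07.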

How the data were processed

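The deposited mRNA values were CPM scaled further by the authors (a signal, here scaled CPM). Library sums ran from 910422 to 1170229, so they were not plain CPM, as the test plan had assumed. The submitters' processing notes name STAR, featureCounts and mm10 for these libraries, mm9 for PAS-seq, and Bowtie, Subread, SAMtools and edgeR without a role. Libraries were poly(A)-selected, directional and amplified for 14 PCR cycles, per the labels' protocols. The authors' deposited comparison sheets hold log2 fold changes and p-values, of which none is printed, and gene lengths, used for levels per kb. PAS-seq ratios of proximal to distal reads are the authors' own, 1 per group, and the hypomorph ratios were not used because they equalled the KO ratio in 3397 of 4324 genes. miRNA data were not analysed here.

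log2(scaled CPM + 0.5) of genes at 1 or more in at least 3 libraries was tested in one limma 3.58.1 fit (R 4.3.3, trend and robust settings) of 18 libraries with a term per group, with Benjamini-Hochberg adjustment over 12344 genes and a threshold of 0.05. Low values gave whole reads for 100% of values (within 0.1 read), and these recovered reads gave depth and the input to edgeR 4.0.16 and DESeq2 1.42.0 as alternatives. At KO day 6 against controls edgeR called 8767 genes and DESeq2 8842, beside 8776 with limma. The fit was tested on simulated data. Figures and summaries used Python 3.11.15. Depth ran from 16268703 to 91433354 reads, and PCR duplicates are not independent molecules.

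The members and lists were chosen with earlier results of these data known. Named were, per role, up to 5 called genes with the largest change at a mean of at least 5 scaled CPM, every gene with an authors' poly(A) site call at KO day 4, the 3 largest rises and falls per comparison, the paralogue pairs, and genes never called, which gave 37. All 49 symbols were matched in RefSeq (GRCm38.p6), 47 directly and 2 by synonym. Counting was by gene, so near-identical copies may share reads. Alternatives were another pseudocount, no filter, TMM scaling, edgeR, DESeq2, a replicate block, a depth term, the compared groups alone, leaving out libraries above 100 scaled CPM of Alb, and each replicate left out; the alternative of libraries of at most 40000000 reads (shallow) alone, and all alternatives of the test of the state difference between days, were chosen after seeing the data.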

Additional observations from a re-analysis of the deposited data

Results flagged for a closer look

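For 21 named helicase genes the hypomorph minus KO difference changed between day 4 and day 6 (limma interaction, adjusted over all tested genes). Values are log2, day 6 minus day 4, each estimated with 3 libraries per group. Upward changes were Ddx20 1.02, Ddx27 0.99, Ddx3y 0.97, Ddx18 0.95, Ddx10 0.87, Ddx50 0.82, Dhx36 0.82, Ddx3x 0.63, Ddx26b 0.62 and Ddx39b 0.56. Smaller upward changes were Dhx15 0.50, Ddx21 0.49, Ddx28 0.49, Dhx30 0.44, Ddx1 0.43, Ddx39 0.39, Ddx51 0.36 and Dhx33 0.36. Downward changes were Dhx32 -0.56, Dhx57 -0.53 and Dhx9 -0.50. The smallest of the adjusted p-values was that of Ddx18 (limma adjusted p = 8.16e-08), and the largest that of Ddx26b (limma adjusted p = 0.042). Among all tested genes 45.7% passed this test. Other analysis settings, 22 for each gene, ended the call of Ddx26b in 13, of Ddx51 in 10 and of Ddx28 in 7, and reversed none of the 21. Groups of 3 were not searched for single outlying libraries.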

How the results depend on the processing

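Counts of helicase genes called at KO day 6, hypomorph day 6, hypomorph against KO day 6 and day 6 against day 4 in either state stayed within 1.5 times of those given under every alternative run. The others moved as follows. For KO day 2 (7 called) DESeq2 gave 11, the depth term 3, the compared groups alone 12, and leaving out the 7 libraries high in Alb 4. That Alb setting gave 12 for KO day 4 (20 called), 6 for hypomorph day 4 (15 called), 3 for hypomorph against KO day 4 (8 called) and 12 for the change of the state difference between days (27 called). The shallow libraries alone gave 13, 9, 2 and 14 for the same 4 results. Both settings use fewer samples by construction, and Alb leaves some groups with 1 library, assumed to vary like the others; for the rest the cause was not tested. Hypomorph against KO day 4 came to 13 with DESeq2 and 13 with the compared groups alone.

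With 1 replicate left out at a time, counts ran from 4 to 9 (KO day 2), 18 to 21 (KO day 4), 41 to 43 (KO day 6), 11 to 14 (hypomorph day 4), 29 to 33 (hypomorph day 6), 4 to 7 (hypomorph against KO day 4), 28 to 37 (hypomorph against KO day 6), 38 to 41 (KO day 6 against day 4), 25 to 29 (hypomorph day 6 against day 4) and 23 to 28 (state difference between days). Of 205 results of single named genes, 125 kept their call in every alternative run and 0 reversed; the least firm were Ddx26b in the state difference (lost in 13 of 22), Dhx36 at KO day 6 against day 4 (12 of 16), Ddx17 in hypomorph against KO day 4 (11 of 16) and Ddx39 in hypomorph against KO day 6 (10 of 16).

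With a replicate block, the counts in the order of the design (KO day 2, 4 and 6, hypomorph day 4 and 6, hypomorph against KO day 4 and day 6, day 6 against day 4 in KO and in hypomorph cells) were 8, 21, 43, 15, 33, 9, 36, 41 and 29, and 27 for the state difference. Deviations of same-numbered libraries correlated from -0.811 to 0.709 (median -0.00418, over 0.1 in 10 of 45 pairs) and those of differently numbered ones from -0.751 to 0.783 (over 0.1 in 26 of 90), so the numbers were not taken as pairs. All 14 poly(A) calls also changed by at least 10 percentage points, as did 7 of the 18 members not called (Ddx10, Ddx11, Ddx19a, Ddx52, Ddx55, Ddx59 and Dhx37, in either direction), so that threshold does not set the called genes apart. Members near 1 scaled CPM, such as Dhx58, are limited by depth.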
